A study of Homo sapiens with 40 samples.

Results

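The regions described here were distal stretches of chromatin that were open in every library of BT474 cells and in no library of their trastuzumab-resistant derivative, BT474R. They were chosen by their peaks in both lines: peaks of all 40 ATAC-seq lists on chromosomes 1 to 22 and X were merged where they overlapped by 1 bp, and a merged region was kept if it had a peak in 20 of 20 BT474 lists and in 0 of 20 BT474R lists, with its midpoint more than 1000 bp from every annotated transcript start. This left 1383 regions of the 76603 merged regions of the series. Before the distance rule there were 1803, of which 420 lay within 1 kb of a start. The mirror set, distal regions with a peak in 20 of 20 BT474R lists and 0 of 20 BT474 lists, held 591.

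BT474 is an established human breast cancer line of luminal epithelial origin with an amplified HER2 gene (ERBB2), and BT474R is 1 clone of it that grows in the presence of trastuzumab, an antibody against HER2. Both lines were serum-starved and then given EGF, HRG or water as the vehicle control for 1, 12 or 24 h, and baseline cells were collected at 0 h after starvation. Each of the 20 combinations of line, agent and time had 2 libraries. Nothing in the labels says how the duplicates were grown, so the p-values below measure the spread between these libraries, part of which may be technical. With 1 resistant clone, what is particular to the clone and what goes with resistance cannot be told apart.

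Open chromatin away from promoters often marks enhancers, stretches of DNA where transcription factors bind and from which they can act on a gene at some distance. In luminal breast cells, FOXA1, GATA3 and TFAP2 factors and the estrogen receptor bind many such sites. EGF binds the receptor EGFR, and HRG (heregulin) binds HER3 and HER4, and both can pair with HER2. Signalling from these receptors through the MAP kinase cascade is known to raise FOS and JUN proteins, which together form the factor AP-1.

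The sequence at the centre of 6 of the regions is given first, because the motif letters in it return in the results. MGAT4C and BCL2 are the genes nearest to 2 of the strongest regions, the regions near IVL and ABCA13 rose after ligand, and those near MPPED2 and IGSF21 fell. These 6 were picked, after their values were seen, among the regions that the naming rule gives. Each runs 100 bases to either side of the point of highest signal in the region, 201 bases in all, on GRCh38. Capitals mark matches to the motifs searched, on either strand.
MGAT4C, chr12:86265110-86265310, plus strand: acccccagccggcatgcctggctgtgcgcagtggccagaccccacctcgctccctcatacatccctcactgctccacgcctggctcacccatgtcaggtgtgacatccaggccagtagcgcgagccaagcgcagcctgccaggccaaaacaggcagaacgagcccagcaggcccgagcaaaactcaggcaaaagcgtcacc
BCL2, chr18:63259546-63259746, plus strand: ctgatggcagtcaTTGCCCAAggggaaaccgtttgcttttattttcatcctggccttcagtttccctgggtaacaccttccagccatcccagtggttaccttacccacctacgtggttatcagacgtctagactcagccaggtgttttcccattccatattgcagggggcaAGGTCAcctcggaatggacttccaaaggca
IVL, chr1:152906284-152906484, plus strand: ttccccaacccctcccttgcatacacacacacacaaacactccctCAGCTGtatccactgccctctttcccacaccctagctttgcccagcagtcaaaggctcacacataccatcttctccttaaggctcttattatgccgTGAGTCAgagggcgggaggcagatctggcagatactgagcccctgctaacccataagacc
ABCA13, chr7:48427345-48427545, plus strand: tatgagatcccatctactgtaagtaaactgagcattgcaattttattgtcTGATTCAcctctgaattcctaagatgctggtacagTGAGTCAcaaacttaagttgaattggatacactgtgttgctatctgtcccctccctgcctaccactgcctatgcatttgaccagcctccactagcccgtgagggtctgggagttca
MPPED2, chr11:30521730-30521930, plus strand: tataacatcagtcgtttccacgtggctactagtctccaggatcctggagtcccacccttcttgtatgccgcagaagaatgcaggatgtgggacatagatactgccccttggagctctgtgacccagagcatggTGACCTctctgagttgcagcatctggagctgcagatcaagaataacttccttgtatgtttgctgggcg
IGSF21, chr1:18134429-18134629, plus strand: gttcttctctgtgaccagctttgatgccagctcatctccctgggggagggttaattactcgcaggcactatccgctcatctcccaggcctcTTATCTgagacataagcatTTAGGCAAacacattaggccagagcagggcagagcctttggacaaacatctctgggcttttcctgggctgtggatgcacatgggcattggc
The ABCA13 window held 2 AP-1 matches and the IVL window held 1, as well as an E-box. The MPPED2 window held a single nuclear receptor site, read on the minus strand. In the IGSF21 window the match to GATA lay on the minus strand, beside a CEBP match. BCL2 had a CEBP match and a nuclear receptor site, and the MGAT4C window, 64.7% GC, held no match to any of the 19 motifs.

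A peak carried a score, the area under its curve of significance, and each list held only peaks with a score of at least 200. The lists held 47571 to 56846 peaks in BT474 and 32479 to 56494 in BT474R. A region without a listed peak may be closed, too weak to pass that score, or lacking in sequenced DNA, and these cannot be told apart from peak lists. As a check of the labelled cell type, the promoters of KRT8, KRT18, KRT19, EPCAM, CDH1, GATA3, FOXA1 and ERBB2 had a peak in 20 of 20 lists of both lines. Among promoters of other cell types, PTPRC, CD3E and PECAM1 had none in any list, COL3A1 had 7 in BT474 and 0 in BT474R, FAP had 2 and 19, and CDH5, VWF and COL1A1 were open in all lists.

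Within each list the peaks were ranked by score, so that a rank percentile of 100 is the strongest peak. The median of the mean rank percentile over the 20 BT474 lists was 37.1 for the BT474-only distal regions (range 9.30 to 92.5) and 63.6 for the 12885 distal regions with a peak in all 40 lists. Of the BT474-only regions, 282 (20.4%) had a mean percentile under 25, 777 (56.2%) lay between 25 and 50, 282 (20.4%) between 50 and 75, and 42 (3.04%) at 75 or above. For distal regions open in all 40 lists the same 4 classes took 1.76%, 24.6%, 44.3% and 29.4%. Thus most of the BT474-only regions were weak to moderate peaks in BT474, and 42 were strong ones. Their median width was 522 bp, against 794 bp. Set against all 55250 distal regions of the series they were wider and stronger (medians of 452 bp and, where BT474 had a peak, a percentile of 25.2). The rule asked for a peak in all 20 BT474 lists, however, and the 55250 include regions listed in fewer. This difference thus cannot be told apart from the way the set was chosen.

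**Figure D1:**
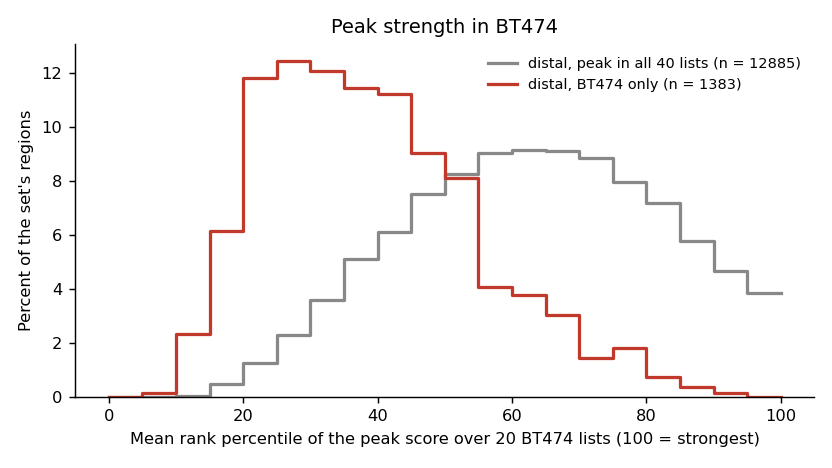
Distribution of peak strength in BT474. The x axis is the mean rank percentile of the peak score over the 20 BT474 lists and the y axis the percent of each set's regions per bin of 5 percentiles; the red line stands for the 1383 BT474-only distal regions (median 37.1) and the grey line for the 12885 distal regions with a peak in all 40 lists (median 63.6).

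Just outside the rule there were 269 distal regions with a peak in 20 BT474 lists and 1 BT474R list. Their median percentile was 33.0 in BT474 and 4.57 in the BT474R list that held them, close to the lowest score listed. A further 395 regions had peaks in 19 BT474 lists and none in BT474R, with a median percentile of 21.7. In distance, the nearest regions left out lay 996, 998 and 998 bp from a transcript start of any gene type. Their nearest protein-coding genes were NRN1L, RBM25 and HELT. The nearest kept lay 1005, 1009 and 1010 bp from such a start, with TRIR, RTL1 and ALDH3B1 the nearest protein-coding genes. The starts at these distances need not be those of the genes named. The set depended strongly on the strength required. With peaks of a score of at least 400 alone, 826 regions met the rule, and they overlapped 330 of the 1383. With the same number of top peaks taken from each list (32479), 763 met it and overlapped 306.

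The 8 regions with the highest mean percentile were named. The strongest, at chr12:86264387-86265604, lay in an intron of MGAT4C, which codes for a glycosyltransferase of N-glycan branching, 8582 bp from its start. Its score was 2263 and 2575 at baseline, 2369 to 2496 in the 6 control libraries (median 2458), 2174 to 2597 after EGF (median 2327) and 2034 to 2643 after HRG (median 2397). The arms overlapped throughout, the promoter of MGAT4C had no peak in any of the 40 lists, and the nearest BT474R peak was 120938 bp away. A 2064 bp region at chr18:63258583-63260646, in an intron of BCL2, an inhibitor of apoptosis and a known estrogen-responsive gene, had a mean percentile of 87.7. The region at chr2:237473380-237474838 lay 11319 bp from MLPH, a linker in organelle transport that is highly expressed in luminal breast cancer, at a mean percentile of 83.8, and the nearest BT474R peak was 411 bp from it. Both promoters, of BCL2 and MLPH, were open in 20 of 20 lists of both lines. At 4 of the 8 the nearest protein-coding start was over 100 kb away. These lay at chr17:73801557-73803122 in LINC00469, at chr20:48468095-48469288 between genes, at chr10:1358473-1359915 in an intron of ADARB2, a double-stranded RNA binding protein of the adenosine deaminase family, and at chr15:20272274-20273368 in an intron of the pseudogene RHPN2P1, where reads may be shared with copies of the gene. The remaining region lay 17701 bp from KHDRBS3, which codes for an RNA-binding splicing factor.

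The regions were spread over all chromosomes but unevenly. Of the 21374 distal regions with a peak in every BT474 list, 6.47% were BT474-only. The share was 9.63% on chromosome 8 (116 regions) and 9.55% on chromosome 3 (128 regions). It was 3.63% on chromosome 1 (71 regions), 2.91% on chromosome 13 (12 regions), 2.69% on chromosome 22 (11 regions), 3.41% on X (14 regions) and 1.09% on chromosome 21 (2 regions). Whether the number of DNA copies differs between the lines along these chromosomes was not tested.

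**Figure D2:**
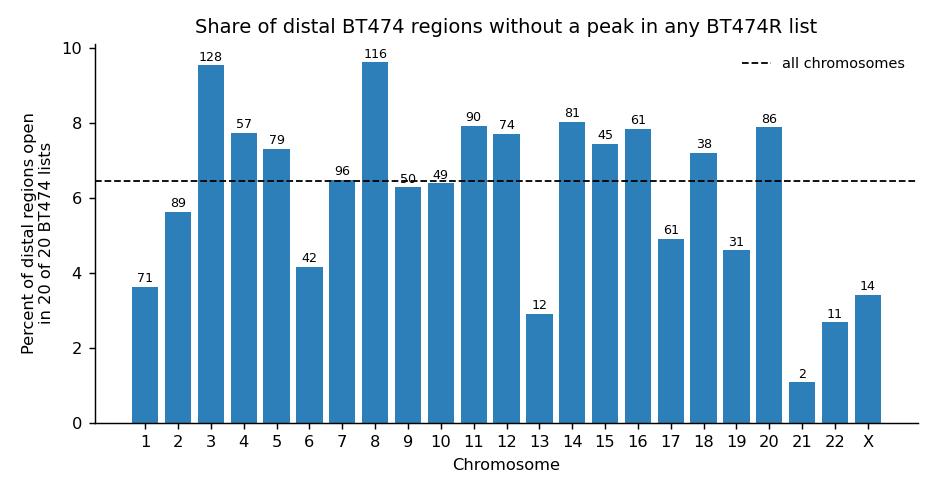
Share of distal BT474 regions without a BT474R peak, by chromosome. The x axis is the chromosome and the y axis the percent of distal regions with a peak in 20 of 20 BT474 lists that had 0 of 20 in BT474R; numbers over bars are counts of BT474-only regions and the dashed line is the share over all chromosomes (6.47%), with chromosomes 3 and 8 highest and 21 lowest.

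By annotation, 59.2% lay in introns, 35.6% between genes, 3.11% in exons outside UTRs and 2.02% in UTRs. For distal regions open in all 40 lists these shares were 58.1%, 36.1%, 3.28% and 2.50%, so the places were alike. The BT474-only regions lay farther from genes, with 22.5% more than 100 kb from a protein-coding start against 13.9%. The distance to the nearest BT474R peak had a median of 13940 bp, with 106 regions within 1 kb and 161 (11.6%) over 100 kb. For the mirror set the distance to the nearest BT474 peak had a median of 7695 bp and 2.37% were over 100 kb.

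Some of the regions stood in stretches without a single BT474R peak. There were 20 runs of consecutive BT474 regions that held at least 3 BT474-only distal regions with no BT474R peak between them, and these held 87 (6.29%) of the 1383. Their lengths ran from 0.011 Mb at TBX3 to 4.14 Mb on chromosome 16 at CDH8, where 9 regions, 3 of them in the set, lay. The mirror set, of 591 regions, had 1 such run, with 3 of them. The run with the most regions spanned 2.02 Mb of chromosome 7 (chr7:152823448-154842354), where 18 regions, 4 of them in the set, lay over ACTR3B, an actin-related protein, and DPP6, an auxiliary subunit of potassium channels. The next lay over COL22A1, a collagen of tissue junctions, on chromosome 8 (chr8:138789730-139278528, 0.489 Mb), with 16 regions and 7 in the set. The third spanned 1.17 Mb over ASIC2, an acid-sensing ion channel (chr17:32998272-34167559), again with 16 regions and 4 in the set. The promoters of COL22A1, DPP6 and ASIC2 had a peak in 20 BT474 lists and 0 BT474R lists, as the distal regions did. Whether these stretches of DNA are still present in BT474R was not tested.

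Within 100 kb of a protein-coding start lay 1072 of the regions, assigned to 925 genes, and 311 had no such gene. Of these genes, 814 had 1 region, 104 had 2 or 3, and 7 had 4 or more. The promoter was open in all lists of both lines at 544 (58.8%) of the 925 genes and had no peak in any list at 171 (18.5%). Over all 19962 protein-coding genes the shares were 56.3% and 28.1%, and over genes with a distal region open in all 40 lists 66.2% and 16.8%. At 21 of the 925 genes (2.27%) the promoter showed the same pattern as the distal regions, 20 lists against 0, compared with 0.676% of all genes and 0.574% of the 5747 genes with a distal region open in all 40 lists. Besides COL22A1, DPP6 and ASIC2 they included SPTLC3, a subunit of serine palmitoyltransferase in sphingolipid synthesis, JAK2, the cytokine receptor kinase, and CCL2, a chemokine that attracts monocytes. These 3 were chosen for mention after the list was seen. A distal region with its midpoint just over 1 kb from a start can reach within 1 kb of it, where promoter peaks were counted. Its own peaks then count for the promoter, and what this adds to the 21 genes was not tested. The share with a promoter open in both lines was thus near that of all genes.

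TSHZ2, a zinc finger homeobox repressor, had the most regions, 8 of the 20 distal regions assigned to it that were open in all BT474 lists, while 3 were open in all 40. All 7 such regions of PTPRM, a receptor tyrosine phosphatase of cell contacts, and all 4 of SPTLC3 were BT474-only. COL22A1 had 6 of 11. PREX1, an exchange factor for the GTPase Rac, had 4 of 28, with 13 open in all 40 lists. TBX3, a T-box factor of mammary development, had 4 of 11, and TEAD1, the DNA-binding partner of YAP in Hippo signalling, had 4 of 9. So at PTPRM and SPTLC3 none of the distal regions constant in BT474 had a BT474R peak, whereas at PREX1 few were without one.

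Among gene lists assembled for this tissue, epithelial adhesion and keratins had a BT474-only distal region near 7 of 32 genes (21.9%), against 925 of 19962 (4.63%) for all protein-coding genes. These were KRT80, CLDN4, DSP, JUP, PKP1, CDH3 and ITGB4, which code for a keratin, a claudin of tight junctions, desmosome proteins, P-cadherin and an integrin. Lipid synthesis had 5 of 22 (22.7%), among them ACACA and ELOVL5 of fatty acid synthesis and elongation, ACSL1, which activates fatty acids, and INSIG1, a brake on sterol synthesis. Steroid receptors and targets had 3 of 20 (GREB1, PDZK1 and BCL2, all known estrogen targets), luminal transcription factors 3 of 22 (TFAP2B, TBX3 and TRPS1), glycolysis and mitochondrial metabolism 3 of 29 (PFKFB3, PPARGC1B and PPARA), and AP-1 and immediate early genes 2 of 24 (FOS and ETS1). HER receptors, ligands and signalling had 1 of 43 (ERBB4), bypass receptor kinases 1 of 24 (NTRK2), the mesenchymal list 1 of 22 (SNAI1), cell cycle 1 of 20 (TP63) and interferon response 0 of 33. Genes in several of these lists also more often had a distal region open in all 40 lists than genes at large. The shares were 59.4% for adhesion, 63.6% for lipid synthesis and 46.5% for the HER list, against 28.8%. The part of this in the counts was not tested.

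Motifs were searched in the 201 bases around each region's strongest point and set beside all 55250 distal regions of the series. A GATA match (AGATAA) was in 15.4% of the BT474-only regions, 8.50% of distal regions open in all 40 lists, 7.11% of the mirror set and 11.1% of all distal regions. The NFI site TTGGCA was in 20.7%, 14.96%, 9.81% and 15.5% of the same sets, the nuclear receptor site AGGTCA in 15.8%, 12.8%, 11.0% and 13.5%, and TEAD (ACATTCC) in 6.51%, 4.94%, 3.72% and 5.15%. AP-1 matches (TGANTCA) were in 16.9%, 18.97%, 9.64% and 19.8%, and TFAP2 matches (GCCNNNGGC) in 12.5%, 17.5%, 21.3% and 14.1%. The forkhead motif of FOXA (TGTTTAC) was in 9.11% of the BT474-only regions and 10.5% of all distal ones. GATA, NFI and TEAD letters were thus more frequent than in all distal regions and AP-1 letters less frequent, also within 250 bp of the strongest point (33.5% against 27.8% for GATA, 37.0% against 30.6% for NFI, 11.9% against 9.71% for TEAD and 25.5% against 28.1% for AP-1). In that wider window the nuclear receptor site was at 30.7% against 30.2% and TFAP2 at 22.4% against 22.3%, so neither difference held in size, and that of TFAP2 turned. Median GC content was 48.8% against 48.3% in all distal regions. The 55250 distal regions also hold regions with a peak in only some BT474 lists, such as only after ligand, which the rule left out. What this adds to the motif differences, that of AP-1 among them, was not tested. A match describes the letters and not binding.

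The palindromic estrogen response element was in 4 of the 1383 regions (0.289%) and in 0.0471% of all distal regions, and in none of the mirror set. As there were so few they are named, after their values were seen. The region at chr3:150756212-150756942 lay 6592 bp from SIAH2, an ubiquitin ligase known as an estrogen target. The one at chr1:154190489-154191246 lay in an intron 1080 bp from a start of TPM3, a tropomyosin, and the other two lay 56938 bp from ADD2, an adducin of the membrane skeleton, and 4119 bp from CAVIN3, a caveola protein. The region near SIAH2 was lower after EGF (log2 -0.54 ± 0.11, SE) and after HRG (-0.70 ± 0.11), and that near TPM3 also fell in both (-0.21 and -0.24). The regions near ADD2 (0.09 and 0.10) and CAVIN3 (0.13 and 0.06) did not pass the test.

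Because every one of these regions had a peak in all 20 BT474 libraries, their strength could be compared within BT474 between ligand and control, a measure the rule did not use. A region that lost its peak in any BT474 library could not be in the set. Scores were put on the log2 scale, quantile-normalised and fitted with limma over all 36820 regions with a peak in every BT474 list, with 6 libraries per arm over the 3 times, and a region was called at a Benjamini-Hochberg adjusted p under 0.05 over all regions. Of the 36820 regions 21374 were distal and the rest lay within 1 kb of a transcript start, whereas all BT474-only regions were distal. How much this adds to differences from all regions tested was not tested. Values are log2 differences with their standard error (SE). EGF and HRG were compared with the same control libraries, so their results share those values and are set side by side only.

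After EGF, 128 of the 1383 regions were higher (9.26%) and 166 lower (12.0%), where 11.7% of all regions tested were higher and 5.39% lower. After HRG, 171 were higher (12.4%) and 294 lower (21.3%), where 12.7% of all tested were higher and 9.08% lower. Distal regions open in all 40 lists differed in this, with 18.9% higher and 3.20% lower after EGF and 19.3% higher and 9.58% lower after HRG. The median difference of the BT474-only regions was -0.05 after EGF and -0.08 after HRG, against -0.03 and -0.04 for all regions tested. For EGF both the split and its order against all regions depended on the scaling. Of the EGF calls among BT474-only regions 43.5% were higher, against 68.4% of all EGF calls. With median centring 171 were higher and 139 lower (55.2% against 48.3%), and with no normalisation 208 were higher and 64 lower (76.5% against 90.2%). The EGF median was -0.01 against -0.05 for all regions under median centring and 0.04 against 0.0018 without normalisation, the reverse of the order above. No direction, alone or against all regions, can thus be given for EGF. After HRG 36.8% of the calls among BT474-only regions were higher, against 58.3% of all HRG calls. This order held with 160 higher and 318 lower under median centring (33.5% against 50.4%) and 175 and 259 without normalisation (40.3% against 68.8%).

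Single times had 2 libraries per arm, and shares are given against the background of all regions tested. At 1 h after EGF 37 regions were called higher (2.68% against 2.15%) and 32 lower (2.31% against 1.70%). At 12 h these were 51 (3.69% against 4.09%) and 22 (1.59% against 0.986%). At 24 h they were 83 (6.001% against 9.67%) and 120 (8.68% against 4.36%). At 1 h after HRG 93 were called higher (6.72% against 4.99%) and 114 lower (8.24% against 5.61%). At 12 h these were 81 (5.86% against 6.20%) and 145 (10.5% against 3.16%). At 24 h they were 99 (7.16% against 9.79%) and 148 (10.7% against 3.96%). Of distal regions open in all 40 lists, 2.75% were higher and 2.63% lower at 1 h after EGF, and 6.02% and 9.17% after HRG. At 1 h the shares of BT474-only regions called lower were thus not above those of this distal set. Its lower shares were 0.722% at 12 h and 1.65% at 24 h after EGF, and 3.11% and 2.34% after HRG. Other scalings were applied over all times only, so no direction is given for EGF at single times. Differences between times were not tested. EGF and HRG did not differ at any of the 1383 regions by limma (higher 0 against a background of 0.00543%, lower 0 against 0%), with 157 (11.4%) at an unadjusted p under 0.05, against 8.02% of all regions tested. Between control and baseline 1 region was higher (background 0.0244%) and 0 lower (background 0.0489%), with 218 (15.8%) at an unadjusted p under 0.05, against 9.72% of all regions tested. That region, chr16:22727394-22728161, lay 86384 bp from HS3ST2, a heparan sulfate sulfotransferase, and its score was 263 and 310.2 at baseline and 442 to 622 in the controls (log2 0.89 ± 0.14, adjusted p = 0.0473). No region was higher with the replicate block, without normalisation, by the deposited significance or with regions in at least 15 lists, so that this call did not hold there. When each library was left out in turn, 0 to 2 regions were higher. Few of these regions thus passed the test between control and baseline. As baseline had only 2 libraries, this does not show that the vehicle steps left the others unchanged.

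**Figure D3:**
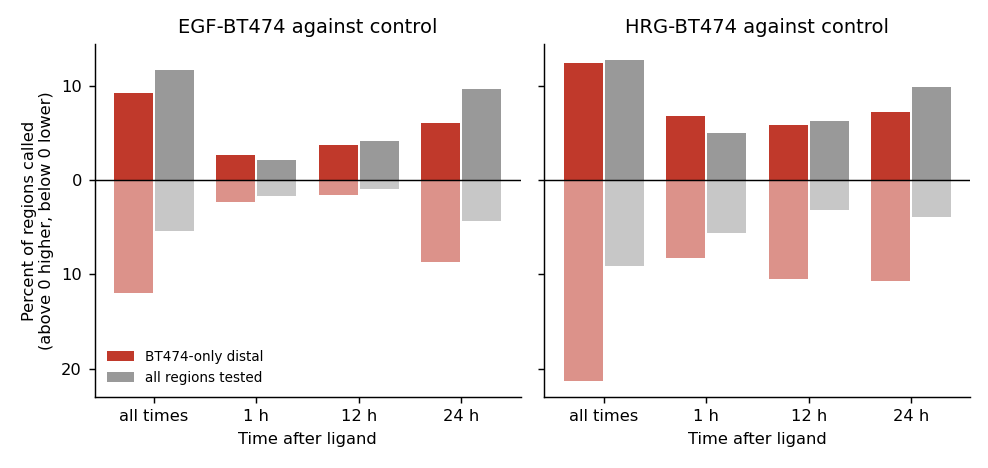
Regions called after ligand in BT474. Bars above 0 give the percent of regions called higher and bars below 0 the percent called lower by limma, over all times and at 1, 12 and 24 h, for EGF (left) and HRG (right); red bars stand for the 1383 BT474-only distal regions and grey bars for all 36820 regions tested, and over all times the red bars reach 12.0% and 21.3% lower where the grey ones reach 5.39% and 9.08%.

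AP-1 matches were more frequent in the regions that rose than in those that fell. Of the 128 regions higher after EGF, 65 (50.8%) held an AP-1 match, against 5 of 166 lower (3.01%) and 15.1% of those not called. After HRG, 84 of 171 higher (49.1%) and 19 of 294 lower (6.46%) held one. Over all regions tested the shares were alike, 50.1% of higher and 2.77% of lower regions after EGF and 50.9% and 3.20% after HRG. Read the other way, the 234 BT474-only regions with a match had a median log2 difference of 0.16 after EGF and 0.19 after HRG, and the 1149 without a match -0.08 and -0.11. Under median centring and without normalisation the median with a match stayed above 0 for both ligands (0.18 to 0.25), while that of regions without a match after EGF was -0.04 and 0.01. Of the BT474-only regions with a match 27.8% rose after EGF and 35.9% after HRG, compared with 43.0% and 47.6% of all tested regions with a match. AP-1 matches thus went with a rise in this set as over all regions tested, in a smaller share of the matching regions, a difference that was not tested.

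GATA matches behaved otherwise. They were in 20.3% of regions higher after EGF and 24.7% of those lower, and in 19.3% and 21.1% after HRG. Over all regions tested these shares were 9.20% and 10.5% after EGF and 9.32% and 12.1% after HRG. The GATA letters were thus frequent in the regions that moved, in either direction.

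**Figure D4:**
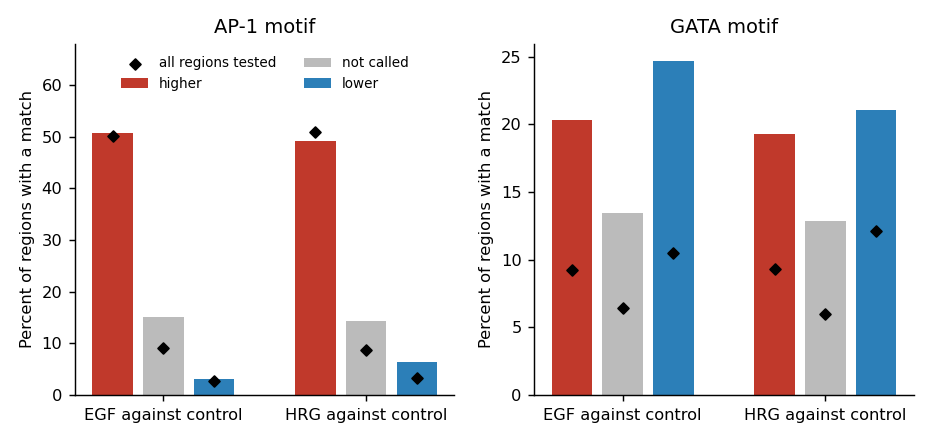
Motif matches by response. Bars give the percent of BT474-only distal regions with an AP-1 match (left) or a GATA match (right) among those called higher (red), not called (grey) and called lower (blue) after EGF or HRG, and black diamonds the same percent over all regions tested; AP-1 matches are in 50.8% and 49.1% of the higher regions and 3.01% and 6.46% of the lower ones.

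Among single regions with the smallest p, that near IVL (chr1:152906015-152906636), the gene of the cornified envelope protein involucrin and a known AP-1 target, had scores of 262 to 434 in the controls (median 345), 505 to 781 after EGF (median 643) and 479 to 890 after HRG (median 716). Neither ligand arm overlapped the controls. The log2 differences were 0.84 ± 0.085 (SE, adjusted p = 4.13e-05) and 1.00 ± 0.085 (adjusted p = 6.96e-06), the largest rises among the regions named here. Its promoter was open in 20 BT474 lists and 7 BT474R lists.

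The region near ABCA13 (chr7:48426702-48427577), in an intron of a lipid transporter gene whose promoter had no peak in any list, scored 627 to 904 in the controls, 901 to 1159 after EGF and 1030 to 1555 after HRG (medians 719, 1081 and 1288). It rose by 0.49 ± 0.056 after EGF (adjusted p = 0.000105) and 0.77 ± 0.056 after HRG (adjusted p = 2.30e-06). The HRG libraries were all above the controls, and the lowest EGF library lay just under the highest control. No BT474R peak lay within 271615 bp of it. In an intron of KIF26B, a kinesin, chr1:245356830-245357516 held AP-1, TFAP2, TEAD and SP/KLF matches. It scored 200.04 to 461 in the controls (median 331), 415 to 511 after EGF (median 476) and 430 to 591 after HRG (median 527), a rise of 0.51 ± 0.053 and 0.70 ± 0.053. The arms overlapped, and the lowest control was at the floor of the list. Measured by the deposited significance, the EGF difference of the KIF26B region was 0.015 and did not pass the limma test (adjusted p = 0.608).

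An intronic region of TMEM132B, a transmembrane protein gene, at chr12:125633744-125634095 held a CEBP match and no AP-1 match. Its scores were 336 to 429.5 in the controls, 502 to 601 after EGF and 430.4 to 569 after HRG, with no overlap, and it rose by 0.40 ± 0.039 and 0.36 ± 0.039.

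Of the regions that fell, the one in an intron of MPPED2, a metallophosphoesterase gene (chr11:30521707-30522025), scored 431 to 498 in the controls (median 457), 304 to 408 after EGF (median 352) and 269 to 335 after HRG (median 306). All ligand libraries lay below all controls, with differences of -0.51 ± 0.050 (adjusted p = 3.58e-05) and -0.61 ± 0.050 (adjusted p = 5.54e-06). The MPPED2 promoter was open in 20 BT474 lists and 1 BT474R list. In IGSF21, which codes for a synaptic adhesion protein, chr1:18134326-18134937 fell from 522 to 609 in the controls to 365 to 497 after EGF and 353 to 514 after HRG (-0.44 ± 0.044 and -0.40 ± 0.044). At chr19:51632177-51632914, in an intron of SIGLEC5, a sialic acid binding receptor of myeloid cells whose promoter had no peak in any list, scores were 616 to 746 in the controls, 482 to 711 after EGF and 347 to 457 after HRG. The HRG libraries were all below the controls and the EGF libraries overlapped them (-0.42 ± 0.058 and -0.74 ± 0.058).

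The largest falls among the named regions were in an exon of the pseudogene MYLKP1 on chromosome 3, with FRG2C the nearest protein-coding gene at 334422 bp. There the scores were 817 to 1073 in the controls, 416 to 830.5 after EGF and 249 to 624 after HRG, a difference of -0.81 ± 0.086 and -1.16 ± 0.086. MYLKP1 is a near-identical copy of part of MYLK, so its reads may be shared with that gene. A region between genes on chromosome 8, 213755 bp from KCNK9, fell from 966 to 1112 in the controls to 597 to 847 after EGF and 488 to 627 after HRG (-0.56 ± 0.066 and -0.86 ± 0.066).

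**Figure D5:**
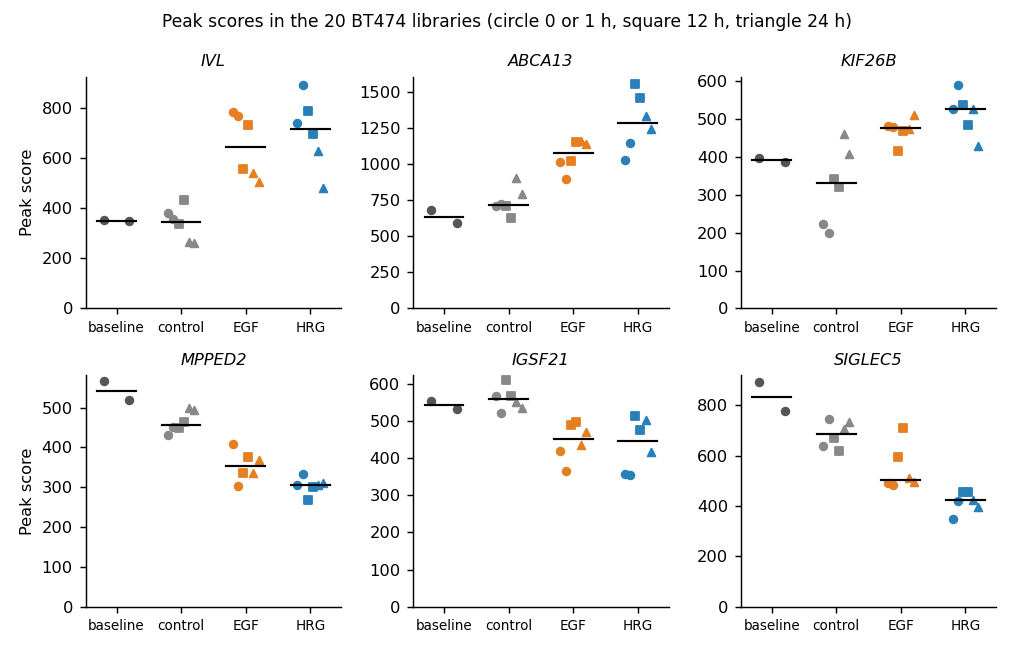
Peak scores in all 20 BT474 libraries for 6 regions, named by the nearest gene. Each point is a library, with circles for 0 or 1 h, squares for 12 h and triangles for 24 h, the y axis is the deposited peak score from 0, and bars are the median of the arm; the upper 3 regions are higher after EGF and HRG (IVL medians 345, 643 and 716) and the lower 3 are lower (MPPED2 medians 457, 352 and 306).

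By gene list the counts are small, and lists were not tested. Of all regions tested 11.7% were higher and 5.39% lower after EGF, and 12.7% and 9.08% after HRG. Of all BT474-only regions 9.26% were higher and 12.0% lower after EGF, and 12.4% and 21.3% after HRG. The 7 adhesion and keratin regions included 2 higher and 1 lower after either ligand. The region 9242 bp from JUP, which codes for plakoglobin of desmosomes, held AP-1, FOXA and GATA matches and scored 460.2 to 585 in the controls, 595 to 878 after EGF and 608 to 866 after HRG, with no overlap (0.39 ± 0.054 and 0.52 ± 0.054). That near KRT80, an epithelial keratin, rose by 0.35 ± 0.084 and 0.34 ± 0.084. At CDH3, P-cadherin, the differences of 0.26 ± 0.090 and 0.22 ± 0.090 did not pass the test. Of the 5 regions near steroid receptor targets, 2 fell after EGF, 3 after HRG and 0 rose. The strong BCL2 region scored 1826 to 2433 in the controls, 1528 to 1969 after EGF and 1507 to 1946 after HRG, overlapping in each case (-0.27 ± 0.078, adjusted p = 0.0327, and -0.39 ± 0.078, adjusted p = 0.00307). An intronic region of GREB1, an estrogen receptor cofactor, had differences of -0.23 ± 0.083 after EGF, which missed the threshold (adjusted p = 0.0788), and -0.30 ± 0.083 after HRG (adjusted p = 0.0219).

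NTRK2, the receptor for the neurotrophin BDNF, had a region 2644 bp from its start that rose from 319 to 530 in the controls to 492 to 720.1 after EGF and 468 to 765 after HRG (0.48 ± 0.081 and 0.50 ± 0.081). An intronic region of ERBB4, the gene of the HRG receptor HER4, showed 0.04 ± 0.13 and 0.08 ± 0.13 and did not pass, and the ERBB4 promoter was open in 20 BT474 and 6 BT474R lists. In TP63, a p53 family factor of basal epithelium, an intronic region fell by 0.30 and 0.45 on the log2 scale. PPARGC1B, a coactivator of mitochondrial genes, had a region that rose by 0.19 ± 0.051 and 0.18 ± 0.051. None of the 6 regions near luminal transcription factors, the 5 near lipid synthesis genes or the 2 near FOS and ETS1 passed the test after either ligand. Medians were -0.05 and -0.03 for the luminal factors and -0.11 and -0.08 for lipid synthesis. With so few regions, no calls does not set these lists apart from the BT474-only regions as a whole. The region 47759 bp from SNAI1, a repressor of E-cadherin, gave differences of -0.0044 and 0.22 and did not pass.

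For genes with several of these regions the counts are small, differences between genes were not tested, and the shares of all regions called, given above, apply. At TSHZ2, 3 of 8 fell after EGF and 5 of 8 after HRG, and 0 rose. At COL22A1, 3 of 6 rose after EGF, 3 of 6 after HRG and 0 fell, and the strongest of them, with AP-1 and GRHL matches, scored 661 to 796 in the controls, 949 to 1048 after EGF and 794 to 1188 after HRG (0.43 ± 0.066 and 0.55 ± 0.066). At PTPRM 1 of 7 fell after each ligand. TEAD1 had 1 of 4 higher after either ligand, a region with an AP-1 match (0.34 ± 0.081 and 0.48 ± 0.081). PREX1 also had 1 of 4 higher after either ligand, with a nuclear receptor site and no AP-1 match (0.24 ± 0.063 and 0.36 ± 0.063), and 0 of 4 at TBX3 were called. At the widest TBX3 region, 2809 bp, scores ran from 651 to 1447 within the controls, so a change there was not detectable beyond the spread between libraries.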

How the data were processed

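ATAC-seq peak lists of 40 libraries were used. Per the study's methods and the submitters' notes, the authors trimmed reads with Trim Galore 0.6.6, mapped them to GRCh38 and called peaks with Genrich in each library separately, without pooling replicates. The authors deposited for each peak a score, the area under the curve of significance, with none under 200, and this score depends on the depth of its own library, so a weak peak can be listed in a deep library and not in a shallow one. Read counts were not analysed here and read depth is unknown. The −log10 p that the authors deposited for each peak served as an alternative measure, and the −log10 q was not used.

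Groups were taken from the sample labels. All peaks fell inside the chromosome lengths of the reference, and gene positions were those of GENCODE release 44. Peaks on chromosomes 1 to 22 and X were merged. In each region the highest peak score per library was taken to log2, quantile-normalised and fitted with limma 3.58.1 (R 4.3.3) over regions with a peak in all 20 BT474 lists, with 1 coefficient for each arm and time. The fit was tested on simulated data. Each region took the gene of the closest protein-coding start, up to 100 kb away. A promoter was 1 kb to either side of any start of a gene. Motif letters were searched on both strands within 100 bp of the summit, and motifs may overlap each other. Python 3.11.15, numpy 2.4.6, pandas 2.3.3 and samtools 1.23.1 were used.

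Named regions were the 8 with the highest mean rank percentile, up to 3 per ligand and direction with the smallest p, the 3 strongest near genes of each list, the 3 runs with the most regions, and genes with 4 or more regions. The members, lists and tests were chosen with earlier results of these data known. Alternatives covered the score and distance limits, the scaling, the measure and leaving out each library. Some gene results are not reported here.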

Additional observations from a re-analysis of the deposited data

Results flagged for a closer look

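In arms of 6 libraries, the highest or lowest library was compared with the rest by the size of its gap. In each BT474 arm this was done for the score of each named region and for the set's median rank percentile. In each BT474R arm it was done for the number of peaks. Of 135 such groups, 8 held a library that stood apart, and chance alone gives about 5% of groups. Among the controls, the region near GREB1 scored 829.5 in 24 h replicate 1 and 588 to 653 in the others, that near SNAI1 scored 623 in the same library and 357 to 435 in the others, and that near TSHZ2 scored 1842 in 24 h replicate 2 and 1696 to 1749 in the others. After EGF, the TP63 region scored 242 in 1 h replicate 2 and 318 to 336 in the others. After HRG, the CDH3 region scored 652 in 24 h replicate 2 and 1118 to 1185 in the others. The FOS region scored 332 in 1 h replicate 1 of HRG and 389 to 419 in the others, and the COL22A1 region scored 794 in the same library and 1073 to 1188 in the others. The TSHZ2 region scored 1154 in 24 h replicate 1 of HRG and 1449 to 1575 in the others.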

How the results depend on the processing

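The number of BT474-only distal regions was 826 with a score of at least 400, 763 with equal numbers of top peaks and 2129 with at least 19 and at most 1 lists, against 1383. It was 1397 with trimmed peaks, 1156 beyond 3 kb, and 1383 to 1471 without each library. Left out after seeing the data, the 6 BT474R libraries of 12 h, which include the 4 lists with the fewest peaks, gave 1384. Without normalisation, EGF gave 208 higher and 64 lower. Measured by covered width, EGF gave 11 and 15, HRG 28 and 49, EGF against HRG 4 higher, and control against baseline 5 higher and 1 lower, and the cause was not tested. Control against baseline gave 2 lower with median centring, sum of scores, and trend and robust variance, and 0 higher without normalisation, by the deposited significance, with regions in at least 15 lists and with the replicate block.

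Without each library in turn, EGF gave 99 to 154 higher and 102 to 198 lower. The lower count was 102 without EGF 1 h replicate 2, 106 without control 24 h replicate 2 and 108 without control 12 h replicate 2. HRG gave 140 to 182 higher and 239 to 318 lower, EGF against HRG 0 to 2 higher and 0 lower, and control against baseline 0 to 2 higher and 0 to 2 lower. In most pairs of groups same-numbered libraries did not deviate together (correlations of deviations -0.20 to 0.60, median 0.01, 4 of 45 pairs over 0.1). The numbers were therefore not taken to pair the samples. The highest correlation, 0.60, shows that the libraries of at least 1 pair of groups did deviate together, and why was not tested. With the replicate block, EGF gave 133 and 164 and HRG 170 and 304. With a window of 250 bp to either side, the AP-1 share was 25.5% against 28.1% in all distal regions. No region named for a small p turned direction under these alternatives, and 12 of their differences missed the threshold, by covered width or deposited significance. Scores near 200 limit what can be called absent in BT474R.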
